A study of Mus musculus with 11 samples.

Results

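The comparison described here asks whether the knock-in changed gene expression to the same extent in spleen and in lymph node (LN). For each gene, the tissue difference was the knock-in effect in LN (KI minus Wt) minus the knock-in effect in spleen, on log2(normalised signal + 1), with the 2 tissues of a mouse paired. A positive tissue difference means that KI minus Wt was higher in LN. It was computed for all 10885 genes of the table from 8 of the 11 libraries: the spleen and the LN of 2 wild-type mice (Wt, mice 1 and 2) and of 2 mice with BCL2 knocked in at the immunoglobulin kappa locus (KI, Igk-BCL2, mice 5 and 6). The other 3 libraries came from mice with a 3'RR-BCL2 transgene (Tg, mice 3 and 4). They entered the estimate of spread for the effect within 1 tissue, and the alternative fits said to use 11 libraries.

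All mice, Wt included, received sheep red blood cells intraperitoneally in 3 immunisations over 3 months, and tissue was taken 1 month after the third. RNA came from dissociated whole-tissue cells. Which lymph node was taken, the age of the mice, the number of founder lines and the species of the inserted BCL2 are not stated in the labels. In whole tissue, fewer cells of a type and less RNA per cell cannot be told apart. Each group had 2 mice, so p-values rest on the spread between few mice and on spread that the fit borrowed from other genes.

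Spleen and lymph node are both sites where B cells meet antigen, form germinal centres and become antibody-secreting plasma cells. They differ in the cells around the lymphocytes: the spleen has a red pulp with iron-recycling macrophages, a marginal zone and stored blood cells, while lymph nodes receive lymph and migratory dendritic cells from tissues. BCL2 blocks mitochondrial apoptosis, and the kappa locus is active in B cells and very active in plasma cells.

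The tissue labels were read against marker genes. Spic, the transcription factor of red pulp macrophages, had a normalised signal of 261 and 276 in Wt spleen against 164 and 243 in KI spleen, and 33.9 and 66.7 in Wt LN against 12.1 and 11.5 in KI LN. The summed signal of 24 pan-T cell genes was 95794 and 95575 in the Wt spleens against 168701 and 165042 in Wt LN, and 45926 and 49206 in the KI spleens against 70579 and 90391 in KI LN. Both markers separated the tissues in every mouse. Recovered depth was between 11128568 and 24110325 reads per library. Xist was at 14513 and 12314 in the spleen and LN of Wt mouse 1 and at most 8.04 in the other 6 libraries, so the mice differed in sex within Wt; the part of sex in the results was not tested.

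Of 10885 genes, 589 (5.41%) had a tissue difference at a limma adjusted p under 0.05. In 485 (4.46%) the knock-in effect was higher in LN and in 104 (0.955%) it was lower. On simulated data, the calls of this fit held a share of false ones above the nominal level. The count depended on the pairing: with no mouse term, limma called 127 higher and 38 lower on the same 8 libraries and 83 and 21 on all 11, while edgeR on recovered reads with the mouse term called 381 and 73. Counts given below with no mouse term are those on the same 8 libraries. The total also depended on single mice, with 851 higher and 312 lower without Wt mouse 2, 204 and 25 without KI mouse 5, and 134 and 19 without KI mouse 6. Each fit without a mouse leaves 1 mouse in its genotype, so its residual spread comes from the 2 mice of the other genotype. Such counts, here and below, mix the loss of that mouse with the spread of the remaining pair. The total also rose without Wt mouse 1. List counts without a mouse are therefore to be read beside the totals and are no result about a list. The called genes were a tail on a distribution centred near 0. The median tissue difference over all genes was -0.01, 48.5% of genes were positive, and 91.5% lay within 1 log2 unit of 0. The upper tail was the longer, with a 95th percentile of 1.32 against a 5th percentile of -0.53. In each of the 589 genes the LN minus spleen values of both KI mice lay on 1 side of those of both Wt mice, which held for 49.9% of all genes.

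**Figure D1:**
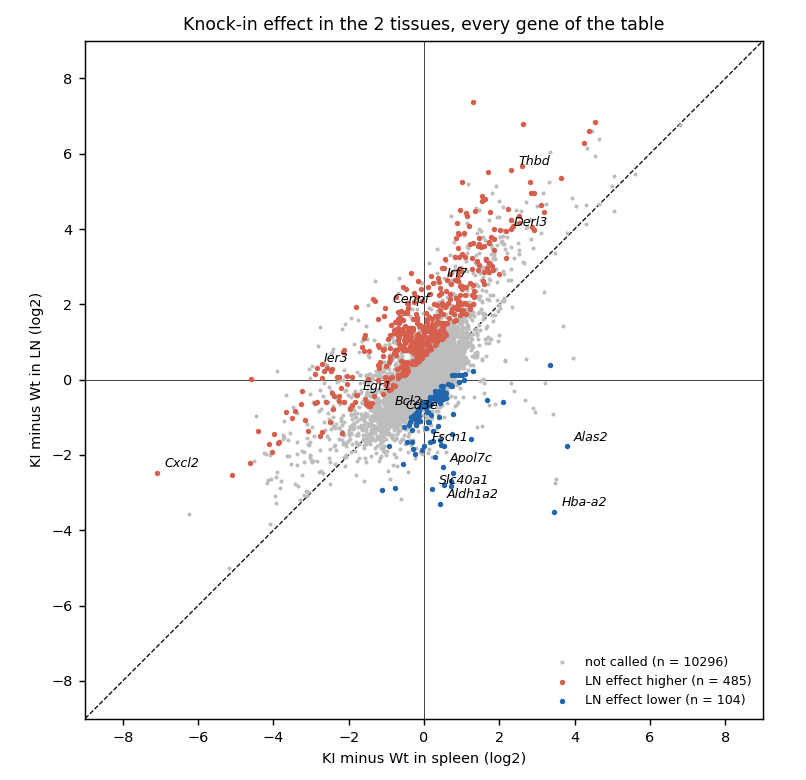
KI minus Wt in LN (vertical axis, log2) against KI minus Wt in spleen (horizontal axis, log2) for every gene, 1 point per gene. The dashed line marks equal effects. The 485 genes with a higher effect in LN lie above it and the 104 with a lower effect lie below it.

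Within a tissue, limma called KI higher than Wt in 13.8% and lower in 12.2% of all genes in LN, and in 7.63% and 9.21% in spleen. Within a genotype, it called LN higher than spleen in 5.01% and lower in 9.36% of all genes in Wt, and in 7.22% and 6.21% in KI. The 485 genes reached the higher LN value in different ways. In 272 of them KI rose against Wt in LN and was not called in spleen, in 87 it rose in both tissues, in 49 it fell in spleen and was not called in LN, and in 15 it fell in both. A further 57 were called in neither tissue alone, and 5 rose in LN and fell in spleen. Of the 104 genes with a lower LN value, 68 fell in LN alone, 18 rose in spleen alone, 12 were called in neither tissue, 4 fell in LN and rose in spleen and 2 fell in both. Read by tissue, 185 of the 485 were lower in LN than in spleen in Wt mice and not called in KI mice. Another 202 were not called in Wt and higher in LN in KI, and 58 were lower in LN in Wt and higher in LN in KI.

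Bcl2 itself, the mouse gene, did not pass the test of a tissue difference. Its signal was 2611 and 2427 in Wt spleen against 1249 and 1299 in KI spleen, and 2338 and 2716 in Wt LN against 1246 and 1664 in KI LN. KI lay below Wt in both tissues, and the tissue difference was 0.18 ± 0.18 (SE; limma adjusted p = 0.668), with a 95% interval from -0.22 to 0.57. How far these reads include the inserted BCL2 was not tested. None of the 7 measured pro-survival BCL2 family genes and none of the 8 BH3-only and effector genes was called, against 5.41% of all genes. Of the latter, Bid, a BH3-only activator, came nearest, at 0.62 ± 0.17 (limma adjusted p = 0.056).

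Many genes of antibody-secreting cells had a higher knock-in effect in LN. Of 22 measured plasma cell identity genes, 10 were called higher in LN and 0 lower, with a median tissue difference of 1.12. In KI against Wt, 17 of the 22 rose in LN and none fell, and 11 rose in spleen and 2 fell. Derl3, which takes part in disposal of misfolded ER proteins, read 395 and 485 in Wt spleen against 2222 and 1792 in KI spleen, and 139 and 221 in Wt LN against 2737 and 2651 in KI LN. The Wt LN held less Derl3 than the Wt spleens, and the KI LN held more than the KI spleens. Its tissue difference was 1.75 ± 0.19 (limma adjusted p = 0.00046). Mzb1, an ER cochaperone of antibody assembly, had a tissue difference of 1.66 ± 0.20, Ell2, the elongation factor that favours secretory heavy chain mRNA, one of 1.46 ± 0.18, and Txndc5, a disulphide isomerase, one of 1.15 ± 0.17. Jchain, the joining chain of IgA and IgM polymers, was outside the naming rule and was chosen after its values were seen. It read 11928 and 10992 in Wt spleen against 105380 and 61413 in KI spleen, and 2972 and 3700 in Wt LN against 122650 and 128795 in KI LN. The summed plasma cell signal of the KI LN, 190116 and 191639, stood above that of the KI spleens, 165488 and 109977, while the Wt LN, at 25675 and 33365, stood below the Wt spleens, at 50955 and 52706. The number called was 11, 13, 10 and 4 without Wt mouse 1, Wt mouse 2, KI mouse 5 and KI mouse 6, and 7 with no mouse term.

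The machinery that folds secreted proteins showed a smaller tissue difference, a median of 0.35 over 28 genes, with 5 called higher and 0 lower. Pdia4, a disulphide isomerase, read 3751 and 4070 in Wt spleen against 5742 and 5237 in KI spleen, and 2117 and 2142 in Wt LN against 5093 and 5468 in KI LN. The KI libraries of both tissues overlapped and the Wt LN libraries were the lowest, giving 0.82 ± 0.16 (limma adjusted p = 0.012). Hspa5, the ER chaperone BiP, rose in LN by 0.57 and was not called in spleen, where KI minus Wt was -0.19. Dnajb9, a BiP cochaperone, moved otherwise: it fell by 1.78 in KI spleen and KI minus Wt was -0.40 in LN, not called. Creld2, an ER stress-induced isomerase, rose in both tissues, by 2.02 in LN and 1.30 in spleen, with a tissue difference of 0.72 ± 0.16, and is also in the plasma cell list. Without KI mouse 6 the 5 calls became 0, without KI mouse 5 they became 2, and with no mouse term 2.

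Many immunoglobulin variable segments had a higher knock-in effect in LN. All 88 measured heavy chain variable (Ighv) segments had a positive tissue difference, 37 were called higher in LN, and the median was 2.15. Of 79 kappa variable (Igkv) segments, 78 were positive and 26 were called, with a median of 1.95. The Ighv signal summed to 24474 and 28975 in Wt spleen against 113856 and 70601 in KI spleen, and 7958 and 9268 in Wt LN against 142432 and 115654 in KI LN. Every KI library exceeded every Wt library, and LN exceeded spleen in KI mice only. The Igkv sums of the KI mice were far apart: mouse 5 had 172700 in spleen and 206681 in LN, and mouse 6 had 141.9 and 167.8, against 36311 and 43756 in the Wt spleens and 12025 and 13578 in Wt LN. In mouse 6, lambda variable (Iglv) segments summed to 184634 in spleen and 255641 in LN, against 44821 and 41240 in mouse 5. No Igkv segment was called for KI against Wt within either tissue, and Igkv segments rested on few reads in mouse 6. Segments share sequence, so reads of near-identical copies cannot be told apart. Without KI mouse 5, 8 Igkv segments were called, without KI mouse 6 28, and with no mouse term 0; the 37 Ighv calls became 21 without KI mouse 6 and 4 with no mouse term.

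Of 8 heavy chain constant regions, 2 were called higher in LN and 1 lower. The higher count was 5 without Wt mouse 1, 4 without Wt mouse 2, 1 without either KI mouse and 0 with no mouse term, and the lower count was 0 without KI mouse 6. Ighg2b (IgG2b) read 6009 and 8691 in Wt spleen against 161053 and 50931 in KI spleen, and 4444 and 6555 in Wt LN against 318201 and 156167 in KI LN. It rose in both tissues, with a tissue difference of 1.72 ± 0.22 (limma adjusted p = 0.0014). Igha (IgA) had a tissue difference of 0.82 ± 0.18. Ighd, the IgD constant region of naive B cells, went the other way, at -0.87 ± 0.20, and fell in KI LN by 0.55 while KI minus Wt in spleen was 0.32. Igkc, the kappa constant region, repeated the split of the variable segments, with 336217 and 419339 in the spleen and LN of mouse 5 and 5793 and 4235 in those of mouse 6.

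**Figure D2:**
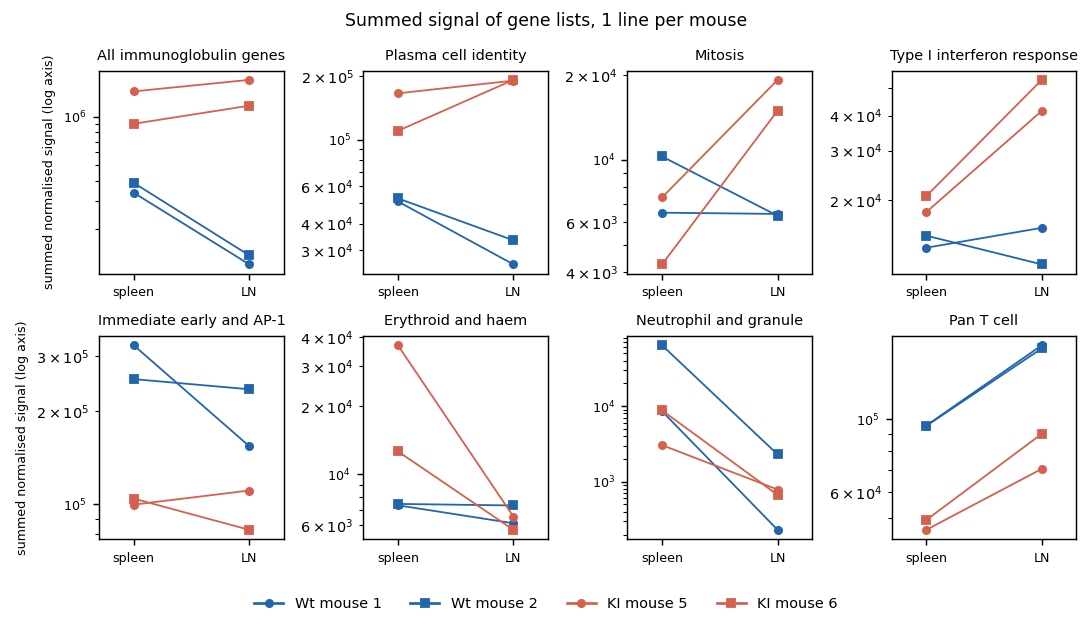
Summed normalised signal (vertical log axis) of 8 gene lists in spleen and LN, with 1 line per mouse. The Wt lines for plasma cell genes fall from spleen to LN and the KI lines rise, whereas for pan-T cell genes all 4 lines rise.

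Some germinal centre genes had a higher knock-in effect in LN. Of 19 germinal centre genes, 5 were called higher in LN and 0 lower, with a median of 1.30. Rgs13, a regulator of chemokine signalling in germinal centre B cells, read 36.2 and 66.1 in Wt spleen against 257 and 158 in KI spleen, and 58.1 and 51.4 in Wt LN against 955 and 793 in KI LN. The KI LN stood clear of all other libraries. Its tissue difference was 1.95 ± 0.37 (limma adjusted p = 0.0128). Bcl6, the master repressor of the germinal centre programme, rose in LN by 1.34 and was not called in spleen (0.50), and Neil1, a DNA glycosylase, behaved alike, with 2.30 in LN and 0.46 in spleen. Of 20 pan-B cell genes 2 were called higher and 1 lower, and the median was 0.01. Fcer2a (CD23), a receptor of follicular B cells, read 8032 and 7266 in Wt spleen against 6173 and 7014 in KI spleen, and 6807 and 7161 in Wt LN against 3564 and 2535 in KI LN. Ccr6, a chemokine receptor of naive and memory B cells, likewise fell in KI LN, by 1.28, and was 0.05 in spleen. Ccr6 is in the lymphocyte homing list, where 2 of 21 measured genes were called higher and 3 lower. Without Wt mouse 1, 11 germinal centre genes were called, without KI mouse 5 or KI mouse 6 3 each, and with no mouse term 1. With no mouse term no pan-B cell gene was called.

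Cell division genes were the list with the largest share called among those described here. Of 26 mitosis genes, 21 were called higher in LN and 0 lower, with a median of 1.90. All 26 rose in KI LN against Wt LN, and none was called in spleen, where the median was -0.58. Cenpf, a kinetochore protein, read 190 and 209 in Wt spleen against 160 and 58.8 in KI spleen, and 113 and 135 in Wt LN against 517 and 409 in KI LN. Its tissue difference was 2.93 ± 0.36 (limma adjusted p = 0.0016). Ccnb2, cyclin B2, read 180 and 306 in Wt spleen against 167 and 128 in KI spleen, and 145 and 183 in Wt LN against 441 and 337 in KI LN. For both genes the KI LN libraries were the highest and the spleen of KI mouse 6 the lowest. Mki67, the proliferation antigen, is in both this list and the germinal centre list. Of 25 DNA replication genes, 10 were called higher and 0 lower, with a median of 0.81. Pcna, the sliding clamp, differed through the spleen, where it fell from 4060 and 4416 in Wt to 2153 and 2081 in KI, while KI minus Wt in LN was -0.07. Uhrf1, which maintains DNA methylation at replication, rose by 0.80 in LN, with -0.50 in spleen. The mitosis count was 12 without KI mouse 5, 7 without KI mouse 6 and 4 with no mouse term; the replication count was 1, 0 and 2.

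Type I interferon response genes rose in the KI LN. Of 25 type I interferon response genes, 12 were called higher in LN and 0 lower, with a median of 1.83. All 25 rose in LN and 3 rose in spleen. Irf7, the transcription factor that amplifies interferon production, read 1007 and 1081 in Wt spleen against 1228 and 1545 in KI spleen, and 1140 and 717 in Wt LN against 4428 and 6664 in KI LN. The KI LN libraries were again apart from the other 6, with a tissue difference of 2.19 ± 0.26 (limma adjusted p = 0.0046). Oas1a, an enzyme of the antiviral RNA degradation pathway, had a tissue difference of 1.83 ± 0.26 and Ifi44 one of 3.22 ± 0.59. Of 17 interferon-gamma GTPases, which act against intracellular pathogens, 3 were called higher, with a median of 0.91, and 9 rose in LN against Wt. Antigen presentation genes were not called: 0 of 11 MHC class II genes and 0 of 18 MHC class I genes, with medians of -0.02 and 0.14. Beside 5.41% called over all genes, 0 calls in lists this small is no result about them. The type I count was 24 without Wt mouse 1, 20 without Wt mouse 2, 9 without KI mouse 5, 2 without KI mouse 6 and 4 with no mouse term. The GTPase count was 7 without Wt mouse 1, 6 without KI mouse 5 and 0 without KI mouse 6.

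Promoter sequences of 1 gene from each of the interferon, mitosis and ER lists are printed here because these lists held several members called in 1 direction. They are the 250 bases before the start of the gene, from RefSeq (GRCm38.p6), 5′ to 3′ on the strand of the gene, with matches to the letters searched in capitals. In each list the gene shown is the called member with the smallest p that holds the letters. Oas1a lies at chr5:120907526-120907775 (minus strand), Ccnb2 at chr9:70421555-70421804 (minus strand) and Creld2 at chr15:88819396-88819645 (plus strand).
Oas1a: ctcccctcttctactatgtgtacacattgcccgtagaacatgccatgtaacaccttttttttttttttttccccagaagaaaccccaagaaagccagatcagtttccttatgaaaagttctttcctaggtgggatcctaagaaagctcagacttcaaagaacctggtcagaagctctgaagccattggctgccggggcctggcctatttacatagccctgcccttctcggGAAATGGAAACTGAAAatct
Ccnb2: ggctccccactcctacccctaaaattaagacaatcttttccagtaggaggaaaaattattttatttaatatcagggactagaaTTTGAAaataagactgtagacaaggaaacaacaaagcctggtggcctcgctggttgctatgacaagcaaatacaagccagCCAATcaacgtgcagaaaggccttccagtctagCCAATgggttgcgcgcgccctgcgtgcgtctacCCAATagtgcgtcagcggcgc
Creld2: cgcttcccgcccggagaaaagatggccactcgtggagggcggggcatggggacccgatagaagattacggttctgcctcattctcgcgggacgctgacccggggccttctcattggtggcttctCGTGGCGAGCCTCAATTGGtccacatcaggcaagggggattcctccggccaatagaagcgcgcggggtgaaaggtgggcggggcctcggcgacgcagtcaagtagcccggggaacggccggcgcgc

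In Oas1a the capitals are 2 overlapping matches to GAAA, any 2 bases and GAAA, the core of the interferon-stimulated response element. In Ccnb2 they are TTTGAA, the letters searched for the cell cycle gene homology region, and 3 copies of CCAAT. The TTTGAA match lies 167 to 162 bases before the start, farther out than the CCAAT copies. Whether it is such a region was not tested. In Creld2 they are CCAAT, any 9 bases and CCACG, the ER stress response element (ERSE), on the opposite strand; this pattern contains CCAAT. In all, 13 patterns were searched on both strands in 8 lists, and the patterns described, like the rule for the gene shown, were chosen after the matches were seen. The interferon pattern was in 9 of 19 type I interferon genes with a promoter in the table and in 9 of 10 interferon-gamma GTPases, against 3.51% of all 8496 genes matched. TTTGAA was in 10 of 21 mitosis genes against 1102 of all 8496, and CCAAT in 18 of 21 against 40.6%. TTTGAA was also in 5 of 10 interferon-gamma GTPases, and CCAAT in 19 of 23 ER and 10 of 14 erythroid genes. The ERSE pattern was in 9 of 23 ER genes against 0.2% of all. The AP-1 letters TGACTCA were in 0 of 25 immediate early genes and 3.65% of all, which says only that these letters were not in these windows. Of the other patterns searched, TGACGTCA, the cyclic AMP response element, was in 5 of these 25 genes and 3.1% of all. Its core TGACG was in 16 of the 25 and 31.6% of all. A match describes the sequence and is no evidence of binding.

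**Figure D3:**
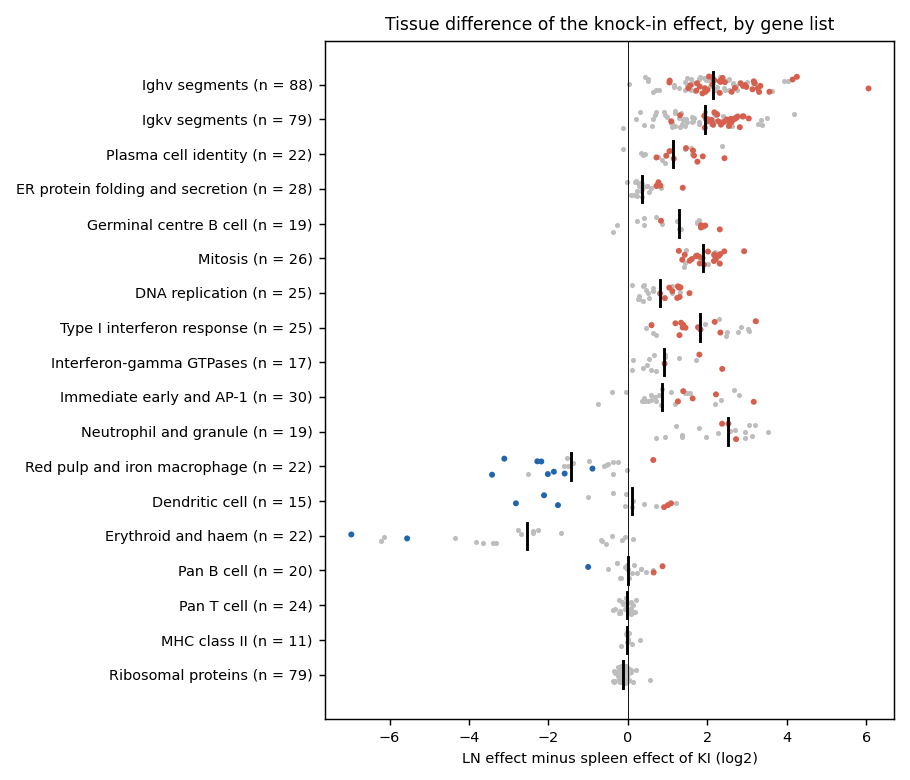
Tissue difference of the knock-in effect (horizontal axis, log2) for the measured genes of 18 lists, 1 point per gene, with called genes in colour (red higher in LN, blue lower) and the list median as a black bar. Mitosis genes lie wholly to the right and red pulp macrophage genes mostly to the left. Pan-T cell genes lie around 0, and ribosomal protein genes close to 0 but mostly left of it.

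Immediate early genes, which cells switch on within minutes of a stimulus, mostly had a more negative knock-in effect in spleen than in LN. Of 30 measured, 5 were called with a higher LN effect and 0 with a lower one, and the median was 0.86. In KI against Wt, 24 fell in spleen and 15 in LN, and none rose in either. The size of the tissue difference depended on the Wt mouse. The list median was 0.395 without Wt mouse 1 and rose above 0.86 without Wt mouse 2. The summed signal of the list did not separate the genotypes. Its log2 ratio of LN over spleen was -1.08 in Wt mouse 1 and -0.11 in Wt mouse 2. In KI mice 5 and 6 it was 0.15 and -0.33, so Wt mouse 2 lay between them. Egr1 read 8720 and 5331 in Wt spleen against 2379 and 1586 in KI spleen, and 4378 and 2657 in Wt LN against 3623 and 1797 in KI LN. It fell in KI spleen by 1.81, while KI minus Wt in LN was -0.42, not called, and its tissue difference was 1.39 ± 0.17 (limma adjusted p = 0.0011). Dusp1, a phosphatase that ends MAP kinase signalling, fell in both tissues, by 2.76 in spleen and from 8398 and 12232 to 4361 and 2957 in LN. Ier3 fell by 2.85 in spleen and was 0.32 in LN. Of 21 NF-kB target and feedback genes 3 were called higher, among them the chemokines Ccl4 and Ccl3, and the chemokine Ccl22 was called lower. These counts were 6 higher and 2 lower without Wt mouse 2, 3 and 0 without KI mouse 6, and 2 and 0 with no mouse term. Ccl4 read 471 and 271 in Wt spleen against 42.0 and 69.5 in KI spleen, and 62.9 and 51.4 in Wt LN against 58.2 and 100 in KI LN. The Wt spleens alone were high, and the tissue difference was 3.12 ± 0.38. The immediate early count was 10 without Wt mouse 1, 23 without Wt mouse 2, 3 without KI mouse 5 and 2 with no mouse term.

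**Figure D4:**
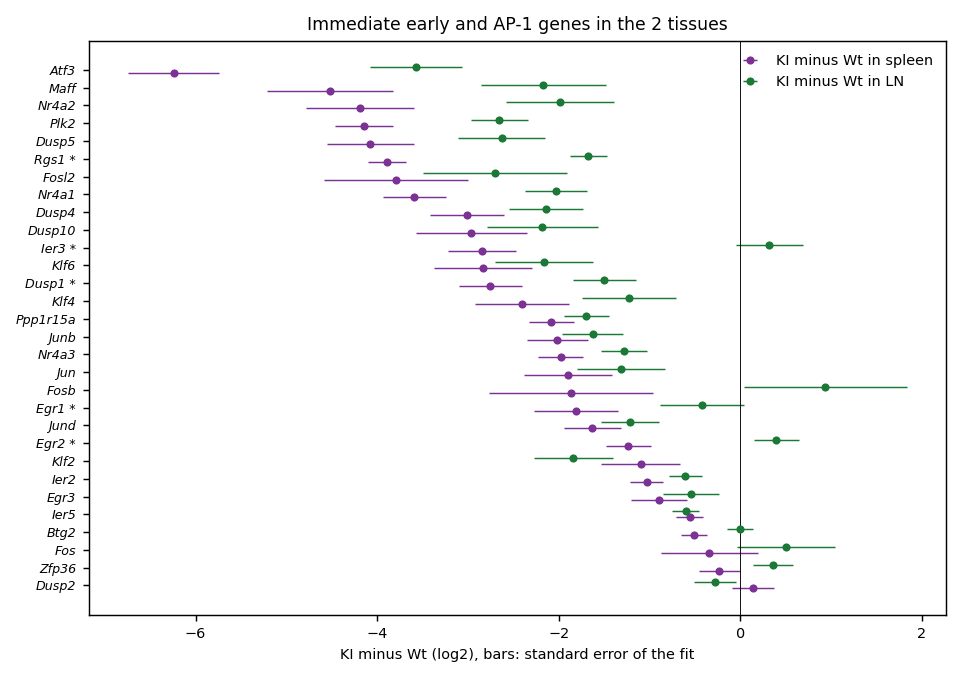
KI minus Wt (horizontal axis, log2) in spleen (purple) and LN (green) for 30 immediate early genes, with standard errors of the fit as bars and an asterisk on genes called for the tissue difference. Most spleen values lie left of the LN values, with 24 genes that fell in spleen and 15 in LN.

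Macrophage genes made up part of the smaller group with a lower effect in LN. Of 22 red pulp and iron macrophage genes, 8 were called lower and 1 higher, with a median of -1.44. In LN 11 fell and 1 rose, and in spleen 1 rose and none fell. The summed signal of the list, in which genes of high signal weigh most, went the other way. It was 20377 and 19347 in Wt spleen against 31832 and 27997 in KI spleen. In LN it was 10177 and 7293 in Wt against 22843 and 19523 in KI. The log2 ratio of LN over spleen of this sum was higher in both KI mice than in both Wt mice, by a mean of 0.71. Vcam1, an adhesion molecule of these macrophages, read 1288 and 1089 in Wt spleen against 1502 and 1568 in KI spleen, and 158 and 121 in Wt LN against 57.1 and 60.9 in KI LN. It fell in LN by 1.22, with 0.37 in spleen, and its tissue difference was -1.59 ± 0.21 (limma adjusted p = 0.0014). Slc40a1, the iron exporter ferroportin, read 1085 and 1263 in Wt spleen against 1180 and 1535 in KI spleen, and 51.6 and 40.5 in Wt LN against 7.68 and 3.45 in KI LN. Its tissue difference of -3.11 ± 0.46 rested on few reads in KI LN and lay between -3.78 and -0.98 over the settings run. C1qc, a chain of complement C1q, had -2.28 ± 0.28 and Cd5l, a macrophage-secreted protein, -2.02 ± 0.36. The 1 member called higher was Apoe, the lipid carrier. The lower count was 12 without Wt mouse 2, 4 without KI mouse 5, and 5 without KI mouse 6; with no mouse term it was again 8. The higher call, Apoe, was lost in each of these fits.

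Dendritic cell genes split. Apol7c, Fscn1 and Ccl22, which mark mature or migratory dendritic cells, were called lower, and Tcf4, Sirpa and Flt3 higher, of 15 measured, with a median of 0.12. Fscn1, an actin-bundling protein, read 563 and 497 in Wt spleen against 590 and 474 in KI spleen, and 4335 and 3228 in Wt LN against 1162 and 1047 in KI LN. The Wt LN was high and the spleens of the 2 genotypes overlapped, with a tissue difference of -1.76 ± 0.17 (limma adjusted p = 0.00017). Apol7c read 150 and 139 in Wt spleen against 191 and 217 in KI spleen, and 1371 and 1109 in Wt LN against 236 and 254 in KI LN. Aldh1a2, a retinoic acid-producing enzyme that gut-derived dendritic cells express, read 8.36 and 5.51 in Wt spleen against 11.1 and 7.88 in KI spleen, and 224 and 364 in Wt LN against 19.8 and 40.2 in KI LN. The tissue difference was -2.82 ± 0.22 for Apol7c and -3.71 ± 0.79 for Aldh1a2. Without KI mouse 6 the higher dendritic cell count became 0 and the lower one 2, and with no mouse term they were 2 and 2.

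Red cell and granulocyte genes had large tissue differences and a large spread between mice of 1 genotype. Of 22 erythroid genes, 2 were called lower in LN, with a median of -2.54. Alas2, the erythroid haem synthesis enzyme, read 21.4 and 26.7 in Wt spleen against 1038 and 114 in KI spleen, and 58.1 and 87.5 in Wt LN against 27.4 and 14.9 in KI LN. The spleen of KI mouse 5 was far above all others, and erythroid signal summed to 36890 there, 12622 in the spleen of KI mouse 6 and 7321 and 7424 in the Wt spleens. Of 19 neutrophil and granule genes, 3 were called higher, with a median of 2.53, and none was called in LN for KI against Wt. Camp, the cathelicidin peptide, read 315 and 2537 in Wt spleen against 87.5 and 302 in KI spleen, and 6.45 and 79.9 in Wt LN against 27.4 and 29.9 in KI LN. Neutrophil signal summed to 8563 and 63789 in the 2 Wt spleens, which differed more from each other than Wt mouse 1 did from the KI spleens, at 3045 and 8785. Without KI mouse 5 no neutrophil gene was called and without KI mouse 6 5 were; the erythroid count was 7 without Wt mouse 1, 5 without Wt mouse 2 and 3 without either KI mouse. With no mouse term no gene of either list was called.

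Several lists showed no called tissue difference. T cell genes fell in both tissues: 23 of 24 pan-T cell genes fell in LN and 21 in spleen, 0 were called for the tissue difference, and the median was -0.03. Cd3e, a T cell receptor chain, read 1661 and 1692 in Wt spleen against 1050 and 1022 in KI spleen, and 3575 and 3338 in Wt LN against 1868 and 1797 in KI LN. Its tissue difference was -0.22 ± 0.15 (limma adjusted p = 0.50). None of 79 ribosomal protein genes, 77 nuclear oxidative phosphorylation genes, 48 proteasome genes or 16 circadian clock genes was called. The share called over all genes was 5.41%. Small shifts to 1 side remained. Of the ribosomal protein genes 10 were positive, with a median of -0.11, against 48.5% of all genes. Of 15 mitochondrially encoded genes 0 were called and 0 were positive, with a median of -0.40. In the clock list Ciart, a transcriptional repressor, had the smallest p, with 1.72 ± 0.38 (limma adjusted p = 0.065).

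**Figure D5:**
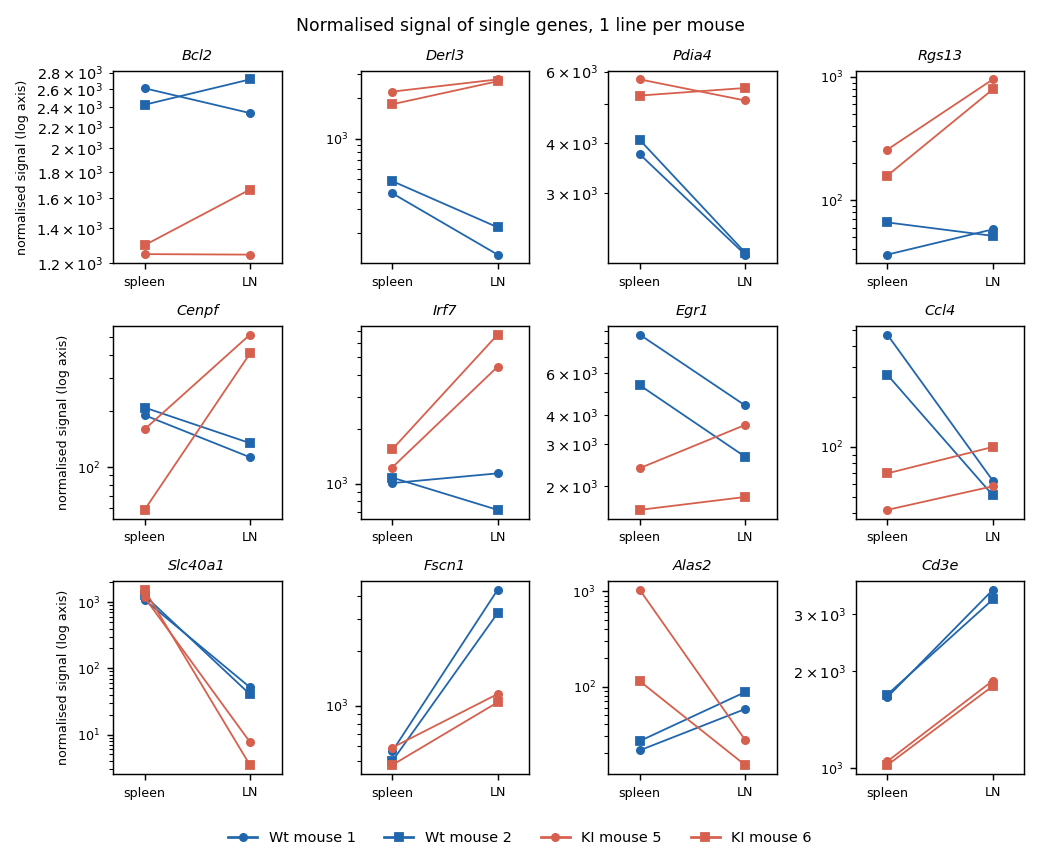
Normalised signal (vertical log axis, its range set per panel) of 12 genes in spleen and LN, with 1 line per mouse. The KI lines of Rgs13, Cenpf and Irf7 rise from spleen to LN above the Wt lines, the Wt lines of Fscn1 rise above the KI lines, and all lines of Cd3e rise.

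The largest single differences included genes outside the lists. Trpm5, a cation channel, read 46.4 and 16.5 in Wt spleen against 116 and 75.2 in KI spleen, and 6.45 and 1.09 in Wt LN against 196 and 164 in KI LN. Its tissue difference of 3.80 ± 0.62 rested on few reads in Wt LN and lay between 1.25 and 4.26 over the settings run. Thbd, thrombomodulin, read 97.5 and 99.1 in Wt spleen against 779 and 310 in KI spleen, and 11.3 and 17.5 in Wt LN against 718 and 702 in KI LN. Both were lowest in Wt LN, and Thbd rose in both tissues while Trpm5 rose in LN. Cxcl2, a neutrophil chemokine, had the largest positive value among the named genes, 4.61 ± 0.83. It read 521 and 1111 in Wt spleen against 12.0 and 1.43 in KI spleen, and 16.1 and 19.7 in Wt LN against 4.39 and 1.15 in KI LN, so that it fell in both tissues and the LN values rested on few reads. Il21, the helper T cell cytokine, had a tissue difference of 3.39 ± 0.79. It read 7.16 in the spleen of KI mouse 6 against 65.2 in that of mouse 5. Unlike the genes outside the lists, Il21 is in the T cell checkpoint and follicular helper list, where 2 of 12 measured genes were called higher. Cygb, a globin, rose in KI spleen by 3.34, with 0.38 in LN, and had a tissue difference of -2.96 ± 0.72.

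Of the 89 named genes that were called, 73 were also called by edgeR on recovered reads with the mouse term, and 34 by limma with no mouse term. The call was kept in every setting run for 9 genes: Apol7c, Neil1, Derl3, Mzb1, Ccl4, Ell2, Vcam1, C1qc and Ier3. Ccl4 and Ier3 were run in 16 settings, not 17, because the filter on a mean of at least 200 left them out.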

How the data were processed

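RNA-seq of spleen and LN was deposited as 1 table of normalised signal for 10885 genes in 11 libraries. Per the submitters' processing notes, the tools were FastQC 0.11.5, STAR 2.5, featureCounts, Subread 1.4.6 and DESeq2 1.26.0 with build GRCm39, with no role or order given. The values show that the authors divided read counts by 1 factor per library: in each library every value was a whole number of equal steps, to 0.001 reads, and reads were recovered from that step. A check on low values was met by the LN columns only, so the spleen reads used in edgeR and DESeq2 rest on the step alone. The lowest maximum of any gene over the libraries was 109.3, which leaves out weakly expressed genes.

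The tissue difference was fitted with limma-trend 3.58.1 (R 4.3.3, trend and robust moderation) on log2(signal + 1), with the mouse as a fixed term, on 8 libraries with 2 residual degrees of freedom. To the 2 residual degrees of freedom, moderation added a median of 10.2 prior ones, borrowed from all genes. KI minus Wt within a tissue came from group means over 11 libraries, with 5 residual degrees of freedom. A gene was called when its p, adjusted by Benjamini-Hochberg over all genes, was under 0.05. Rose and fell refer to calls within a tissue. Errors are standard errors. Spleen and LN of a mouse share the subject in the labels. Deviations of the 2 tissues from their group means correlated over genes, at 0.403 in Wt and 0.900 in KI. Genes with large deviations can dominate these values. The consensus correlation within mice, estimated gene by gene over 11 libraries for the random block, was only 0.017. An exact permutation test of 2 against 2 mice cannot go below p = 0.3333, so none is given. The fits were tested on simulated data, where the share of false calls was above the nominal level with the mouse term and not above it with no mouse term. The number of calls is to be read with that limit.

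Members, gene lists and tests were chosen with earlier results of these data known. Named genes were Bcl2, the 10 largest called differences in each direction whose mice did not overlap, and up to 4 called members (or 2 uncalled) with the smallest p of each of 45 lists, leaving out antigen receptor segments, pseudogenes and predicted genes. Alternatives were the mouse term, pseudocounts of 0.1, 5 and 50, a mean of at least 200, other scalings, other moderation and leaving out each mouse. Chosen after seeing the data were edgeR 4.0.16 and DESeq2 1.42.0 on recovered reads, a median-centred scaling and the list counts under each setting. Promoters came from RefSeq and were matched by symbol for 8496 genes.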

Additional observations from a re-analysis of the deposited data

Results flagged for a closer look

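The effect of the knock-in was called different between LN and spleen, by the test of the difference itself, in 589 genes. It was higher in LN in 485 and lower in 104. The share of false calls on simulated data limits these counts too. In 9 of these genes KI was called against Wt in both tissues and in opposite directions. Some of these calls lay near the threshold of 0.05. The limma adjusted p within LN ran from 0.0031 (Spc24) to 0.047 (Tceal9). Within spleen it ran from 0.0040 (Myl4) to 0.049 (Arrb1). Of the 9, 5 rose in KI LN and fell in KI spleen. Cks2, a subunit of cell cycle kinases, had a tissue difference of 1.86, reading 331 and 451 in Wt spleen against 196 and 175 in KI spleen, and 242 and 248 in Wt LN against 484 and 378 in KI LN. Spc24, a kinetochore protein, had 2.13, and Cdca5, a regulator of sister chromatid cohesion, had 2.14. Myl4, a myosin light chain, had 2.05 and Tceal9 had 1.51. The other 4 fell in KI LN and rose in KI spleen. Txnip, a thioredoxin inhibitor that restrains glucose uptake, had -1.02, reading 8922 and 9550 in Wt spleen against 12819 and 13462 in KI spleen, and 13731 and 13189 in Wt LN against 9668 and 9243 in KI LN. Arhgef18 had -1.06, Cnn3, a calponin, had -0.87 and Arrb1, beta-arrestin 1, had -0.77. No group held 4 or more samples, so single samples were not tested as outliers.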

How the results depend on the processing

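The number of calls depended on the pairing by mouse. With no mouse block, limma called 83 higher and 21 lower over 11 libraries and 127 and 38 over 8, and with a random block 88 and 21, against 485 and 104 with the fixed block. LN minus spleen was called higher for 336 genes in Wt (545 in the main comparison) and 520 in KI (786) with no block over 11 libraries, where both the block and the libraries changed. Quantile normalisation gave 267 higher and 102 lower, so that 72.4% of its calls were higher, and moderation without trend or robust 189 and 37. Leaving out 1 mouse gave 134 to 851 higher and 19 to 312 lower; KI against Wt then gave 767 to 1037 higher in LN and 551 to 750 lower, and in spleen 216 to 335 higher and 357 to 480 lower. Values that changed sign, none of them called, were Bcl2 without KI mouse 6 (-0.0050, range without 1 mouse to 0.36), H2-DMb1 without Wt mouse 1 (-0.10, to 0.73), Kdr with quantile normalisation (-1.11) and without KI mouse 6 (-0.36, to 2.04), and Tnfrsf17 with quantile normalisation (-0.22). Over the 89 called named genes and all settings, 1062 values kept the call and 420 kept the direction only. The causes were not tested. Depth limits genes with few reads in LN: over all settings the tissue difference of Kcnj10 ran from -5.24 to -0.87 and that of Paqr9 from -4.08 to -0.80.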
